A study of Mus musculus with 9 samples.

Results

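The keratin genes Krt2, Krt36 and Krt84 and the selenium-binding protein gene Selenbp2 were described across 9 microarrays of mouse tail epidermis, sampled at day 4 (D4) after wounding. These 4 genes, out of 17097 measured, were chosen because their signal was far lower at the leading edge (LE) of the wound than in the proliferative hub behind it. The LE values are therefore given as a description, without a test. Only the comparison of hub and control tail skin was tested for these 4 genes, and it shares the hub arrays with the comparison that chose them.

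The wound was a 3 mm punch in the tail of CD1 mice, and the labels give no transgene or drug for any group. LE cells came from a 4 mm punch around the wound and were sorted as positive for α5 integrin, whereas hub cells came from a 6 mm punch and were sorted as negative for it. Control cells came from tail skin of the same stage taken away from the wound, and no α5 integrin gate is given for them. In all 3 groups α6 integrin on the surface selected basal cells, and cells with the bulge marker CD34 were left out. Each of the 3 samples per group held 300 cells from a pool of 5 mice, and their RNA was amplified before hybridisation. The labels call the samples biological replicates and the study's methods call them technical and independent, so p-values measure only the spread between these samples. No age is given for these mice. LE and hub differ in both punch and gate, so position and α5 integrin status cannot be told apart.

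Keratins form the intermediate filaments of epithelial cells, and each filament needs a type I and a type II partner. In the mouse most type I genes lie in a cluster on chromosome 11 and the type II genes in a cluster on chromosome 15. Mouse tail skin alternates scales, which keratinise like hair and nail, with interscale epidermis, which keratinises like the rest of the skin. Krt84 (type II, chromosome 15) and Krt36 (type I, chromosome 11) belong to the hair keratin branch and are known in the mouse from scale-like and papillary epithelia of tail and tongue. Krt2 (type II, chromosome 15) is an epidermal keratin of the suprabasal layers. Selenbp2 (chromosome 3) is not a keratin: it encodes a cytosolic selenium-binding protein, and its close paralog Selenbp1 encodes a methanethiol oxidase. The arrays carry no position within the tissue, so scale and interscale cells were not separated.

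The stretch of 80 bases that precedes the annotated start of each gene is shown because the 4 genes are low on the same arrays and the 2 selenium-binding genes share most of theirs. The sequences are from RefSeq (mouse, GRCm38.p6), written 5′ to 3′ on the strand of the gene. Capitals mark a TATA-like box of each keratin gene, or the stretch that holds the AT-rich run shared by the selenium-binding genes; these were picked after the sequences had been read.
Krt2 (chr15:101818170-101818249, minus strand): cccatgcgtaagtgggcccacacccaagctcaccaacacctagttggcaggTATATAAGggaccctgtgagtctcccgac
Krt36 (chr11:100105627-100105706, minus strand): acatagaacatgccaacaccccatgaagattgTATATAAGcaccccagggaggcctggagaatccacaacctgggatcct
Krt84 (chr15:101532821-101532900, minus strand): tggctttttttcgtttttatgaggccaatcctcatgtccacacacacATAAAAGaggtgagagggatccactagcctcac
Selenbp2 (chr3:94693493-94693572, plus strand): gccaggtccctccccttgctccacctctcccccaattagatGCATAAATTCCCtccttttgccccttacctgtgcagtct
Selenbp1 (chr3:94933003-94933082, plus strand): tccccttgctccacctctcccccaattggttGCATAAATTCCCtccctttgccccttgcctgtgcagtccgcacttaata

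Krt2 and Krt36, which sit on different chromosomes, shared the box TATATAAG, beginning 29 bases before the start of Krt2 and 48 bases before that of Krt36. On either strand this box lay in 1.01% of 32851 mouse promoter windows of 300 bases (250 before and 50 after the start). Krt84 carried ATAAAAG beginning 33 bases before its start. TTTAT, a core favoured by HOX proteins of the posterior class, was searched on both strands of the 300-base windows. It occurred 6 times at Krt84, 1 time at Krt2, 2 times each at Selenbp2 and Selenbp1, and not at Krt36, and it lay in 40.0% of all windows. The capitals of Krt84, Selenbp2 and Selenbp1 each overlap 1 match. TGANTCA, bound by AP-1, and GCCNNNGGC, bound by AP-2, had no match in the 5 windows, against 7.81% and 16.6% of all windows. The windows of Selenbp2 and Selenbp1 were 94.4% identical (272 of 288 aligned bases), and every other pair among the 5 lay between 51.2% and 59.9%. These matches describe letters and not binding.

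Signals are log2 values after robust multi-array averaging (RMA), which gives all arrays nearly the same distribution. A difference of 1 is a doubling, and levels of different probe sets are not compared. Fewer cells of a type and less RNA per cell cannot be told apart in such bulk samples. Array medians lay between 6.47 and 6.53, and nonspecific background, read from 23 probe sets, was centred on 4.66 and spanned 3.66 to 8.61. Itga5, the gene of the sorted integrin, averaged 9.11 in LE, 6.92 in hub and 6.40 in control. Cd34 stayed between 4.60 and 4.79 in the group means. The basal keratins Krt5 and Krt14 lay between 13.28 and 13.32 in every group mean.

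On the LE arrays all 4 genes lay inside the span of the background probe sets and above their median. Nonspecific signal may therefore be part of their LE values, and each fold below is to be read as a lower bound and each share of the hub mean as an upper bound.

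Each of the 4 genes is measured by 1 probe set with no other gene symbol, and each had its lowest values on the 3 LE arrays. Krt2 had signals of 5.99, 6.50 and 7.35 in LE, against 12.25, 12.35 and 12.38 in hub and 12.62, 12.54 and 12.61 in control. The hub and control arrays held Krt2 near the top of the signal range with little spread, while the LE arrays spread over 1.36 units well below. Krt2 averaged 6.61 ± 0.69 in LE and 12.33 ± 0.07 in hub (SD, n = 3 each), a difference of -5.72 ± 0.27 (SE), or 52.5-fold. Against control, at 12.59 ± 0.04, it was -5.98 ± 0.27, or 63.1-fold. The LE arrays held 1.24%, 1.76% and 3.17% of the hub mean of Krt2 on the linear scale.

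Krt36, the type I member, had signals of 7.83, 7.58 and 6.94 in LE, against 12.14, 11.86 and 11.87 in hub and 12.34, 12.20 and 11.86 in control. No LE array came within 4.03 units of the lowest hub array, and hub and control overlapped. Krt36 averaged 7.45 ± 0.46 in LE and 11.96 ± 0.16 in hub (SD, n = 3 each), a difference of -4.51 ± 0.21 (SE), or 22.8-fold. The LE arrays held 5.72%, 4.80% and 3.08% of its hub mean. Its control mean was 12.13 ± 0.25, which put LE minus control at -4.68 ± 0.21.

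Krt84, the type II hair keratin, had signals of 7.06, 6.63 and 7.18 in LE, against 11.15, 10.85 and 10.52 in hub and 11.16, 11.06 and 10.97 in control. Here too every LE array was below every other array, by 3.34 units or more from the hub, and the hub and control arrays overlapped. Krt84 averaged 6.96 ± 0.29 in LE and 10.84 ± 0.32 in hub (SD, n = 3 each), a difference of -3.88 ± 0.18 (SE), or 14.7-fold. LE minus control was -4.11 ± 0.18, with a control mean of 11.06 ± 0.10. On the LE arrays the share of the hub mean of Krt84 was 7.29%, 5.41% and 7.92%.

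**Figure D1:**
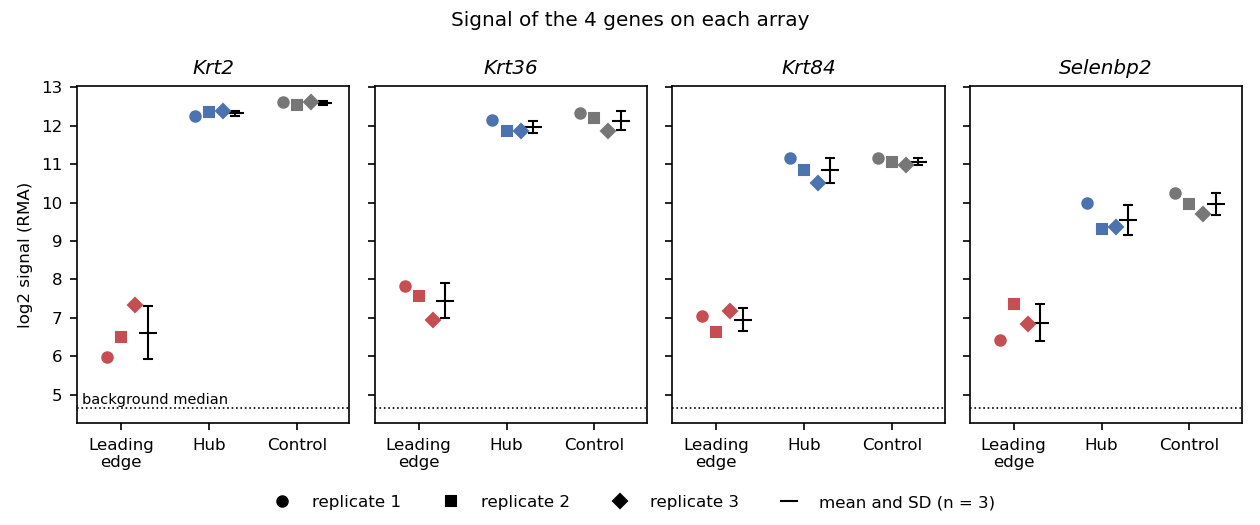
Log2 RMA signal (y axis) of Krt2, Krt36, Krt84 and Selenbp2 on each array of LE (left), hub (middle) and control (right); marker shapes give the replicate number, the bars the group mean and SD (n = 3), and the dotted line the median of the background probe sets, 4.66. In each panel the 3 LE arrays lie below all other arrays, from 5.99 to 7.83 over the 4 genes, while no hub or control array is below 9.31.

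Selenbp2 had signals of 6.41, 7.37 and 6.84 in LE, against 9.99, 9.31 and 9.35 in hub and 10.26, 9.95 and 9.69 in control. It was the least separated of the 4, with 1.94 units between the highest LE array and the lowest hub array, and its hub and control arrays overlapped. Selenbp2 averaged 6.87 ± 0.48 in LE and 9.55 ± 0.38 in hub (SD, n = 3 each), a difference of -2.68 ± 0.26 (SE), or 6.40-fold. The LE arrays held 11.4%, 22.0% and 15.3% of its hub mean. Against the control mean of 9.97 ± 0.28 the LE difference was -3.09 ± 0.26.

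Ordered by size of the LE minus hub difference over 17097 genes, Krt2, Krt36 and Krt84 held ranks 1, 2 and 3 and Selenbp2 rank 5. The metallothionein gene Mt4 came between them at rank 4 with -3.29 ± 0.34 (SE), and Efemp1, an extracellular matrix glycoprotein gene, followed at rank 6 with -2.51 ± 0.16. All 4 genes showed no overlap of LE below hub, as did 15.4% of all genes, and none of LE below control, as did 16.2%. Since the genes were chosen on these arrays, nothing is read from those counts.

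The order of the LE arrays differed between the genes, but at signals inside the background span nothing can be read from it. Over all 9 arrays, which were normalised together, the 6 pairs among the 4 genes had r between 0.967 and 0.989, set by the contrast of the LE arrays with the rest and given as a description.

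Differences between hub and control were small beside those of the LE, and none passed the test for these 4 genes. In limma, 0 of 4 passed an adjusted p of 0.05 and 0 of 4 had an unadjusted p under 0.05, against 7.28% of all genes called in this comparison. At such a share 0 of 4 says little, and the intervals below say more. The difference of Krt2, hub minus control, was -0.27 ± 0.27 (SE), with a 95% interval of -0.86 to 0.33 (limma adjusted p = 0.691). The hub arrays of Krt2 were nonetheless all below the control arrays, which held for 1 of the 4 genes and for 9.41% of all genes. The spread in this fit is shared with the LE arrays, where Krt2 varied most, and a fit of only the 6 hub and control arrays gave an SE of 0.07 and a limma adjusted p of 0.0838.

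Krt36 differed by -0.17 ± 0.21 (SE) between hub and control, with an interval of -0.65 to 0.30 (limma adjusted p = 0.758). For Krt84 the difference was -0.22 ± 0.18, with an interval of -0.62 to 0.17 (limma adjusted p = 0.579). The largest of the 4 was that of Selenbp2, -0.42 ± 0.26, with an interval of -1.0 to 0.17 (limma adjusted p = 0.458). The intervals leave room for up to a doubling in control over hub and for a smaller excess in hub, and their lower ends are far from the LE differences. By size of decrease in hub against control, the 4 genes ranked between 716 and 2303 of 17097.

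**Figure D2:**
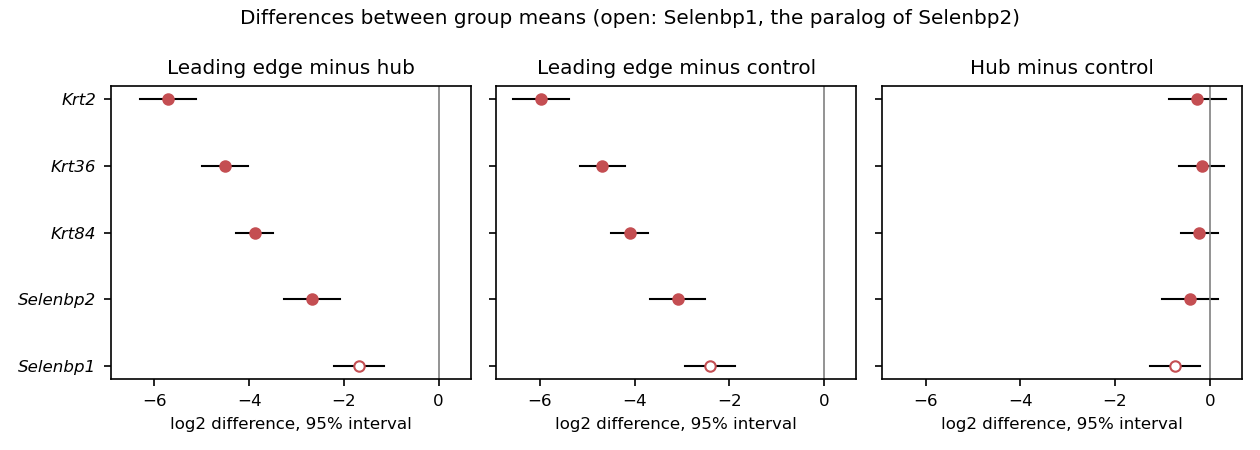
Differences of group means (x axis, log2 units) with 95% intervals for LE minus hub (left), LE minus control (middle) and hub minus control (right); filled points are the 4 chosen genes and open points Selenbp1. The points of LE minus hub run from -5.72 (Krt2) to -1.68 (Selenbp1), whereas the intervals of the 4 chosen genes in hub minus control all cross 0.

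Selenbp1, the paralog of Selenbp2 that was not chosen on these arrays, was also lower at the LE. Its probe set gave 7.81, 8.73 and 8.09 in LE, against 10.23, 9.55 and 9.88 in hub and 10.83, 10.56 and 10.48 in control. The LE arrays lay below all others, and the hub arrays below the control arrays. LE minus hub was -1.68 ± 0.24 (SE, limma adjusted p = 0.00183) and LE minus control -2.41 ± 0.24 (limma adjusted p = 7.39e-05). Hub minus control was -0.73 ± 0.24 and did not pass (limma adjusted p = 0.107). The Selenbp2 probe set carries the suffix that Affymetrix gives to probes matching more than 1 transcript, so signal of the paralogs cannot be told apart there.

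Most of the other keratins did not pass the test between LE and hub. Of 49 other keratin genes listed, 36 were measured. Between LE and hub, 4 were lower and 1 higher, against 5.23% lower and 5.39% higher over all genes, and the median difference of the 36 was 0.00 (all genes, -0.01). On chromosome 15, which holds Krt2 and Krt84, 2 of 18 other keratins were lower and 1 higher, and on chromosome 11, which holds Krt36, 2 of 18 were lower and 0 higher. The 4 that fell had smaller differences than any of the chosen keratins.

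Krt1, the type II keratin of the spinous layer, had signals of 12.09, 10.49 and 11.28 in LE, against 12.97, 13.13 and 12.94 in hub and 12.84, 12.54 and 12.48 in control. It was lower at the LE in each comparison, with LE minus hub at -1.73 ± 0.32 (SE, limma adjusted p = 0.00724) and LE minus control at -1.33 ± 0.32 (limma adjusted p = 0.0134). Krt10, its type I partner, gave 11.92, 10.96 and 10.90 in LE, against 12.75, 12.75 and 12.70 in hub and 12.73, 12.71 and 12.86 in control. LE minus hub was -1.47 ± 0.22 for Krt10 (limma adjusted p = 0.0028), and hub minus control was -0.03 ± 0.22 (limma adjusted p = 0.97). Krt1 and Krt10 thus had their low values on the LE arrays, like the chosen keratins, but with smaller differences.

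Krt80 and Krt15 fell in steps over the 3 regions. Krt15, a type I keratin of basal and bulge cells, averaged 8.64 in LE, 9.86 in hub and 11.05 in control. LE minus hub was -1.23 ± 0.09 (SE, limma adjusted p = 4.19e-05) and hub minus control -1.18 ± 0.09 (limma adjusted p = 1.16e-04). Krt80, a type II keratin of differentiating epithelia, averaged 7.38 in LE, 8.18 in hub and 9.29 in control, with LE minus hub at -0.80 ± 0.14 (limma adjusted p = 0.00463) and hub minus control at -1.11 ± 0.14 (limma adjusted p = 0.00167). Krt18, of simple epithelia, was higher in LE than in hub by 0.41 ± 0.08 (limma adjusted p = 0.0137), a call that was lost without LE replicate 2, hub replicate 1 or hub replicate 2, with adjusted p up to 0.0565. All signals of Krt18, and those of Krt80 in LE and hub, lay within the background span, so nonspecific signal may be part of them.

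Against control, 4 other keratins were higher at the LE and 5 lower, where 11.9% of all genes were higher and 10.8% lower. The higher ones were Krt18 and the wound keratins Krt6a, Krt6b and Krt16, and the lower ones were Krt1, Krt10, Krt80, Krt15 and Krt75, a keratin of the hair follicle companion layer. Between hub and control, 3 were higher (Krt6a, Krt6b and Krt16) and 2 lower (Krt80 and Krt15), where 4.16% and 3.12% of all genes were. Krt16 was higher in hub by 0.76 ± 0.06 (SE, limma adjusted p = 2.34e-04) and Krt6a by 0.55 ± 0.08 (limma adjusted p = 0.00361). The signals of Krt6b were 12.67, 12.75 and 12.62 in hub, against 6.47, 11.27 and 7.38 in control, and its call (4.31 ± 0.96, limma adjusted p = 0.0266) was lost without any of the hub arrays, without control replicate 1 or 3, and in the fit of 6 arrays, with adjusted p up to 0.0879.

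Hair keratins other than Krt36 and Krt84 showed no difference that passed. Of 14 listed, 8 were measured (Krt31, Krt33a, Krt33b, Krt34, Krt35, Krt81, Krt83 and Krt86), and in limma 0 of 8 were called and 0 of 8 had an unadjusted p under 0.05 in any of the 3 comparisons. Over all genes 10.6% were called in LE against hub, 22.8% in LE against control and 7.28% in hub against control, so 0 of 8 says little. LE minus hub differences of these 8 ran from -0.13 (Krt31) to 0.08 (Krt33b), and their group means over the series from 4.85 to 7.65, within the span of the background probe sets. At that level a difference would be hard to see. Krt31, a keratin of the scale in mouse tail, had signals of 6.11, 6.06 and 6.09 in LE, against 6.28, 6.15 and 6.22 in hub and 6.32, 6.24 and 6.11 in control. The array thus measured clear signal in hub and control for Krt36 and Krt84 but not for Krt31.

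**Figure D3:**
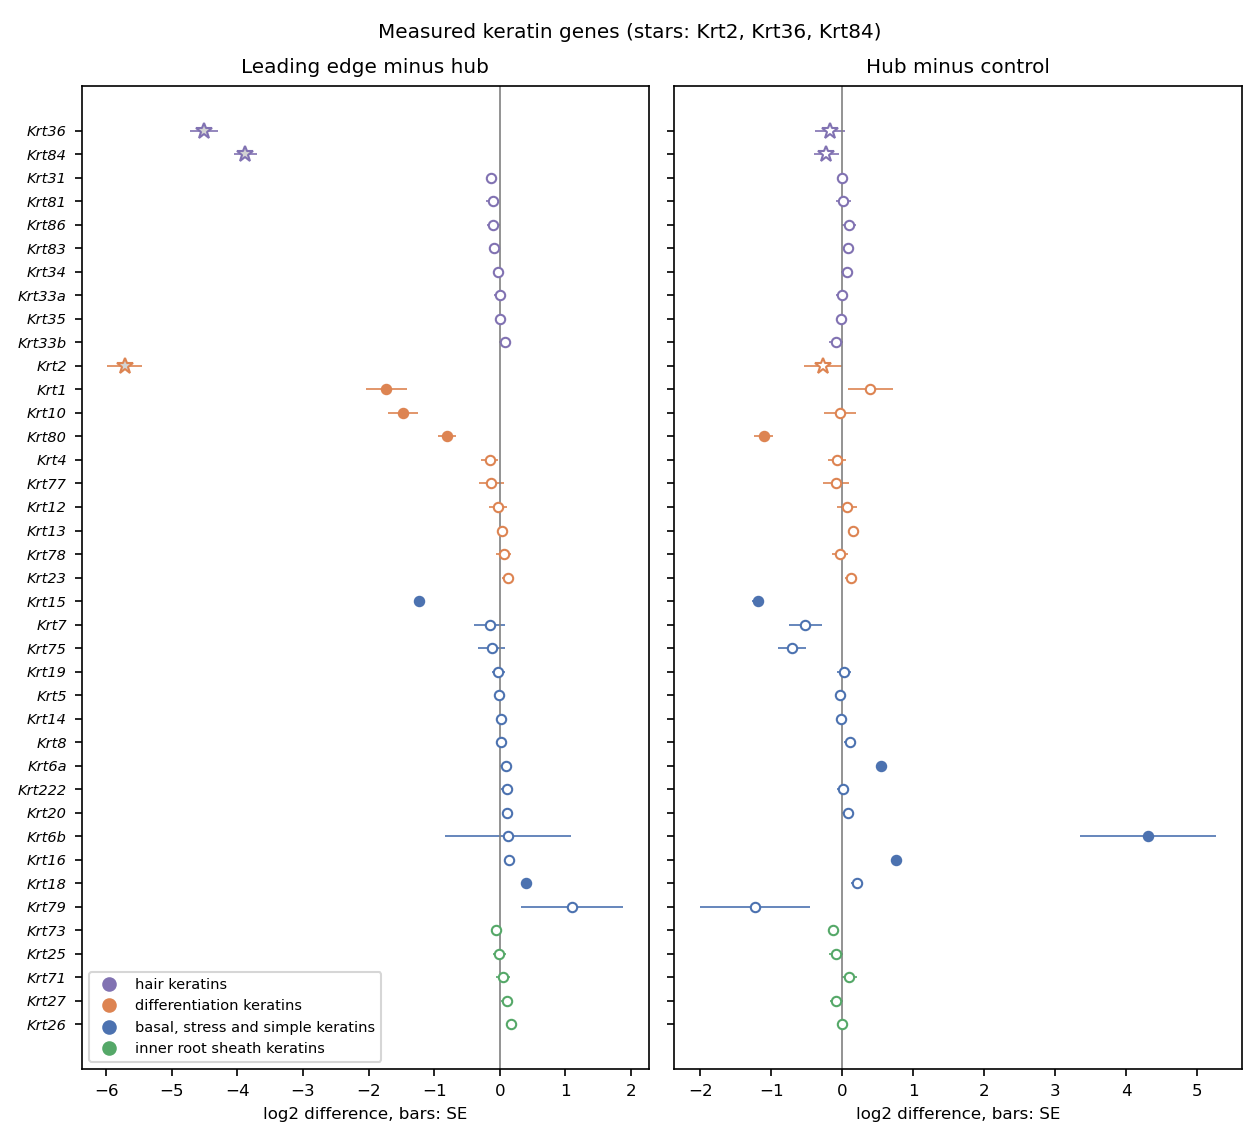
Log2 differences (x axis, bars are SE) of all measured keratins for LE minus hub (left) and hub minus control (right), coloured by kind of keratin; filled circles passed limma at an adjusted p of 0.05, open ones did not, and stars are Krt2, Krt36 and Krt84, filled grey where they were not tested. The stars at -5.72, -4.51 and -3.88 lie left of every circle in the left panel, the next being Krt1 at -1.73, and lie near 0 in the right panel.

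Of the genes next to the 4 on their chromosomes, 7 were measured. Krt2 lies between Krt73, a keratin of the inner root sheath (LE minus hub -0.07 ± 0.07, SE, limma adjusted p = 0.697), and Krt1. Krt36 lies between Krt35 (0.00 ± 0.08, limma adjusted p = 0.994) and Krt13, a mucosal type I keratin (0.03 ± 0.07, limma adjusted p = 0.893). The neighbour of Krt84 that was measured, Krt83, differed by -0.09 ± 0.07 (limma adjusted p = 0.532). Beside Selenbp2, Tuft1 differed by -0.26 ± 0.16 (limma adjusted p = 0.425) and Cgn, which encodes the tight junction protein cingulin, by 0.09 ± 0.07 (limma adjusted p = 0.530). Krt1 was the only one of these 7 neighbours to pass between LE and hub, where 10.6% of all genes did.

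Transcription factors known to act on hair keratin genes or in hair differentiation were listed, and all 8 were measured. Between LE and hub, 4 were lower and 0 higher, beside 5.23% and 5.39% of all genes, and the median of the 8 was -0.25 (all genes, -0.01). Hoxc13, a homeobox factor that activates hair keratin genes, had signals of 7.27, 7.16 and 7.34 in LE, against 8.55, 8.48 and 8.62 in hub and 8.93, 9.14 and 8.93 in control. No groups overlapped. LE minus hub was -1.29 ± 0.08 (SE, limma adjusted p = 2.67e-05) and LE minus control -1.75 ± 0.08 (limma adjusted p = 1.13e-06). Hub minus control of Hoxc13 was -0.45 ± 0.08 (limma adjusted p = 0.0125), a call lost without hub replicate 2 (adjusted p = 0.0516).

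Foxq1, a forkhead factor of the hair medulla in mouse, had signals of 8.86, 8.35 and 8.38 in LE, against 9.25, 9.43 and 9.39 in hub and 9.70, 9.94 and 9.86 in control. LE minus hub was -0.82 ± 0.13 (SE, limma adjusted p = 0.00403), and its other probe set gave -0.45 and did not pass (limma adjusted p = 0.157 over all probe sets). Gata3, a factor of inner root sheath and epidermal differentiation, was lower in LE, with LE minus hub at -0.45 ± 0.11 (limma adjusted p = 0.0315). That call was lost without LE replicate 2 or 3 or any hub replicate (adjusted p up to 0.114). Gata3 was also lower against control, with LE minus control at -1.23 ± 0.11 (limma adjusted p = 4.45e-05) and hub minus control at -0.78 ± 0.11 (limma adjusted p = 0.00333).

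Foxn1, the forkhead factor mutated in nude mice, which acts on hair keratin genes, averaged 7.41 in LE, 7.81 in hub and 7.42 in control. LE minus hub was -0.40 ± 0.10 (SE, limma adjusted p = 0.0332), lost without any LE replicate and without hub replicate 2 or 3 (adjusted p up to 0.118), and its other probe set gave -0.29 (limma adjusted p = 0.159 over all probe sets). In hub it was higher than in control by 0.40 ± 0.10 (limma adjusted p = 0.0474), a call lost without any LE replicate, hub replicate 2 or 3 or control replicate 1 or 2, with a mean-variance trend, with the mean of its probe sets and in the fit of 6 arrays (adjusted p up to 0.561). The other probe set of Foxn1 gave -0.14 for hub minus control (limma adjusted p = 0.587 over all probe sets). Its LE minus control was -0.43 (limma adjusted p = 0.0211 over all probe sets), against -0.01 for the main one, so the probe sets disagree against control. Msx2, Lef1, Dlx3 and Prdm1 did not pass between LE and hub. Against control 3 of the 8 factors were lower at the LE and 1 higher, beside 10.8% and 11.9% of all genes. The higher one was Prdm1 (LE minus control 0.39 ± 0.11, limma adjusted p = 0.0303). That call was lost without any LE replicate or control replicate 1 or 2, with the replicate block and in the fit of 6 arrays (adjusted p up to 0.0929). A second, dimmer probe set of Dlx3, a homeobox gene of hair and epidermal differentiation, was lower in LE, with LE minus hub at -0.57 (limma adjusted p = 0.0127 over all probe sets) against -0.06 for the main one, so the probe sets of Dlx3 disagree. All signals of Gata3 and of the main probe set of Foxn1 lay within the background span. So did those of Hoxc13 on all LE arrays and on hub replicates 1 and 2, and those of Foxq1 on LE replicates 2 and 3. Nonspecific signal may be part of these values. Whether any of these factors has a part in the low keratin signal was not tested.

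**Figure D4:**
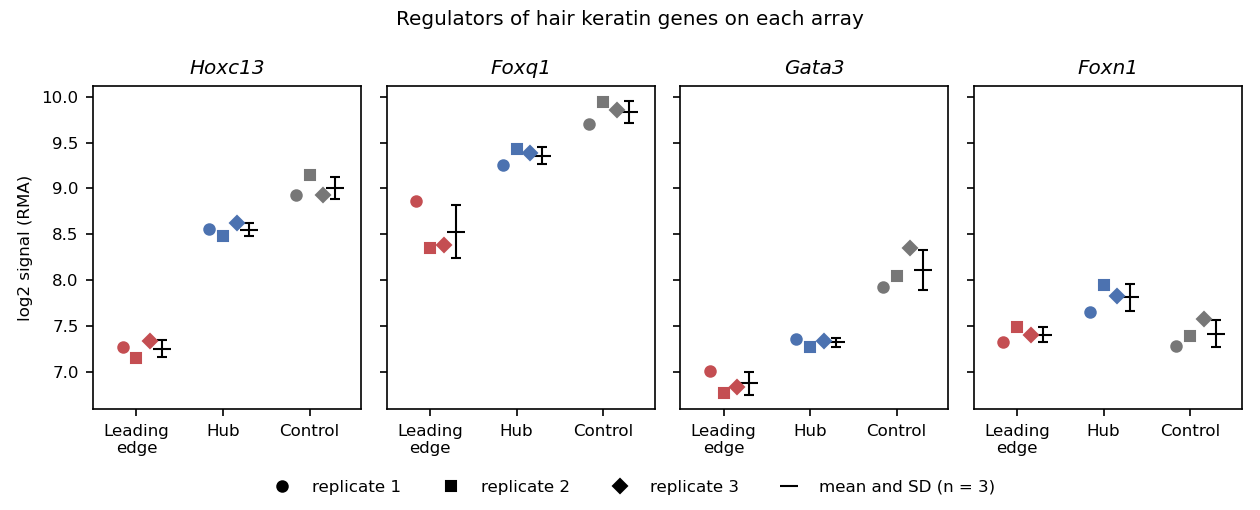
Log2 RMA signal (y axis) of Hoxc13, Foxq1, Gata3 and Foxn1 on each array of LE (left), hub (middle) and control (right); marker shapes give the replicate number and bars the group mean and SD (n = 3). Hoxc13 runs from 7.16 to 7.34 in LE and from 8.48 to 8.62 in hub, and the main probe set of Foxn1, shown here, is highest in hub, with a mean of 7.81.

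Genes that distinguish tail scale from interscale were mostly dim. Of 7 listed and measured, 2 were lower in LE than in hub, beside 5.23% of all genes. One was Krt10, of interscale epidermis, and the other Slc1a3, a glutamate transporter gene of scale basal cells, at 4.82 in LE, 5.26 in hub and 5.27 in control (LE minus hub -0.44 ± 0.08, SE, limma adjusted p = 0.00728). Edar, the ectodysplasin receptor, and Dlx1, a homeobox gene of interscale basal cells, differed by -0.06 ± 0.17 (limma adjusted p = 0.903) and 0.15 ± 0.11 (limma adjusted p = 0.502). In hub against control 0 of 7 were called, beside 7.28% of all genes, and 0 of 7 had an unadjusted p under 0.05 in limma. The signal of Slc1a3 was near the background median of 4.66 in all groups.

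Some genes of the spinous and granular layers fell at the LE as well. Of 22 measured, 7 were lower and 1 higher in LE than in hub, beside 5.23% and 5.39% of all genes, and the list mean per array ran from 8.72 to 8.75 in LE, against 9.06 to 9.21 in hub and 9.01 to 9.17 in control. The lower ones were Krt1, Krt10, Dsg1a and Dsc1 (desmosomal cadherins), Calm4 (a calcium-binding protein of differentiating keratinocytes), Krtdap (a secreted keratinocyte protein) and Casp14 (the caspase of cornification). Casp14, at -1.55 ± 0.36 (SE, limma adjusted p = 0.023), was lost without any LE replicate and without hub replicate 1 or 2 (adjusted p up to 0.0766). Grhl3, a factor of barrier formation, was higher by 0.72 ± 0.16 (limma adjusted p = 0.0215), lost without LE replicate 2 or 3 and without hub replicate 1 or 3 (adjusted p up to 0.0824). Against control 7 were lower at the LE and 2 higher, Ivl and Grhl3, beside 10.8% and 11.9% of all genes. Ivl, which encodes involucrin, was higher there by 0.57 ± 0.14 (limma adjusted p = 0.0161), lost without LE replicate 2 or 3 or control replicate 1 or 3. Its LE minus hub difference of 0.33 ± 0.14 did not pass (limma adjusted p = 0.191), but a second probe set gave 0.54 (limma adjusted p = 0.0442 over all probe sets). The late genes Lor and Flg were at background level, with group means of 5.79 to 6.14 for Lor and 4.30 to 4.48 for Flg, so nothing can be read from their not passing (limma adjusted p of 0.310 and 0.873). In hub against control 1 of 22 was higher and 1 lower, beside 4.16% and 3.12% of all genes.

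The part of suprabasal cells among the sorted cells was not tested, and the basal markers bear on it only in part. Of 6 basal markers, 2 were higher in LE than in hub, Itga6 (α6 integrin) by 0.47 ± 0.06 (SE, limma adjusted p = 0.00162) and Itgb4 (its partner) by 0.38 ± 0.06 (limma adjusted p = 0.00375), and 0 were lower. Over all genes 5.39% were higher and 5.23% lower. Markers of other cell types varied most among the LE arrays. The mean of 8 myeloid markers ran from 6.08 to 7.09 in LE, against 6.08 to 6.15 in hub and 6.07 to 6.08 in control, and that of 5 endothelial markers from 6.23 to 7.94 in LE, against 6.43 to 6.94 in hub and 5.91 to 6.28 in control. None of these 13 genes had a group mean below the background median, but the background span reaches 8.61. The group means of Adgre1 (5.80 to 5.90) and Itgam (5.67 to 5.93), for instance, lay inside that span, so their expression cannot be taken as given.

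The 3 LE arrays differed in these markers. Of the 8 myeloid markers, 1 was called between LE and hub, beside 10.6% of all genes. It was Cd14, a lipopolysaccharide co-receptor gene (0.88 ± 0.14, SE, limma adjusted p = 0.00422), with signals of 7.28, 6.64 and 6.91 in LE, against 6.07, 5.93 and 6.21 in hub and 6.03, 6.03 and 6.09 in control. Lyz2, the lysozyme of macrophages and neutrophils, had signals of 8.25, 5.36 and 7.12 in LE, against 5.25, 5.38 and 5.19 in hub and 5.20, 5.07 and 4.92 in control. On LE replicate 2 Lyz2 was as low as in the hub, and Cd14 was above every hub and control array. The mean of 5 melanocyte markers ran from 5.76 to 6.92 in LE, against 5.93 to 6.05 in hub and 5.96 to 6.09 in control. The mean of 5 fibroblast markers ran from 5.92 to 6.17 in LE, against 6.03 to 6.12 in hub and 6.22 to 6.30 in control, so that control arrays were highest. Of the fibroblast markers only Dcn, which encodes decorin, was called. It was lower in LE than in control (LE minus control -1.65 ± 0.20, SE, limma adjusted p = 3.04e-04) and in hub than in control (hub minus control -1.09 ± 0.20, limma adjusted p = 0.0115). The others did not fall with it: LE minus control was 0.65 for Col1a1, 0.10 for Col3a1, 0.02 for Col1a2 and -0.23 for Pdgfra, and none passed. The mean of 5 Merkel cell markers ran from 6.18 to 6.30 in LE, against 6.07 to 6.10 in hub and 6.01 to 6.12 in control. Of 3 T cell markers, 1 was lower in LE than in hub, beside 5.23% of all genes: Thy1, with a difference of -1.23 ± 0.13 (SE, limma adjusted p = 3.61e-04). The other T cell markers did not pass and had positive differences, Cd3e at 0.04 ± 0.07 (limma adjusted p = 0.847) and Cd3g at 0.14 ± 0.11 (limma adjusted p = 0.547). The part of these cell types in the results was not tested. No hair follicle marker passed between LE and hub: in limma 0 of 8 were called, beside 10.6% of all genes, and 0 of 8 had an unadjusted p under 0.05.

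Genes with the profile most like each of the 4 were sought by Pearson correlation over the 9 arrays among 857 genes whose group means span at least 1 unit. Likeness here rests mainly on the contrast of LE with the other arrays, so it is a description and carries no test. The profiles closest to Krt2 were those of Krt84 (r = 0.989), Sdr16c5 (r = 0.989), which encodes an epidermal retinol dehydrogenase, S1pr5 (r = 0.987), a sphingosine-1-phosphate receptor gene, Calm4 (r = 0.984) and Clu (r = 0.983), which encodes the chaperone clusterin. Sdr16c5 averaged 6.54 in LE, 8.16 in hub and 8.16 in control, and S1pr5 7.40, 8.39 and 8.42 in the same groups. Neither came close to the size of the Krt2 difference.

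Krt36 was most like Dsg1a (r = 0.995), the desmoglein of differentiating keratinocytes, which averaged 8.28 in LE, 10.08 in hub and 10.22 in control. Next came Krt84 (r = 0.987), Them5 (r = 0.987), an acyl-CoA thioesterase gene, Slc22a4 (r = 0.987), a carnitine and ergothioneine transporter gene, and Parp10 (r = 0.987), a mono-ADP-ribosyltransferase gene. Parp10 had the largest LE minus hub difference among these neighbours in profile that are not keratins, -2.20.

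Krt84 was most like Clu (r = 0.995), then Mettl7a1 (r = 0.989), Krt2 (r = 0.989), Krt36 (r = 0.987) and Them5 (r = 0.984). Clu had signals of 8.42, 8.06 and 8.35 in LE, against 10.00, 10.12 and 9.90 in hub and 10.20, 10.12 and 9.98 in control. All 3 keratins thus named another of the 3 among their 5 closest profiles. Their choice by the same contrast favours this, so nothing is read from it.

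Selenbp2 had other closest profiles than the keratins, though its r with Krt36, 0.969, was little below the lowest of them. Closest were Oplah (r = 0.993), which encodes the 5-oxoprolinase of the glutathione cycle, Selenbp1 (r = 0.981) and Bbip1 (r = 0.980), a BBSome subunit gene. Then came Pdcd4 (r = 0.979), an inhibitor of translation initiation, and Ephx1 (r = 0.971), the microsomal epoxide hydrolase gene. Oplah averaged 9.58 in LE, 10.71 in hub and 10.79 in control. Bbip1 has a second probe set, whose LE minus hub difference was 0.14 and not -1.09, so its likeness holds for 1 probe set only.

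**Figure D5:**
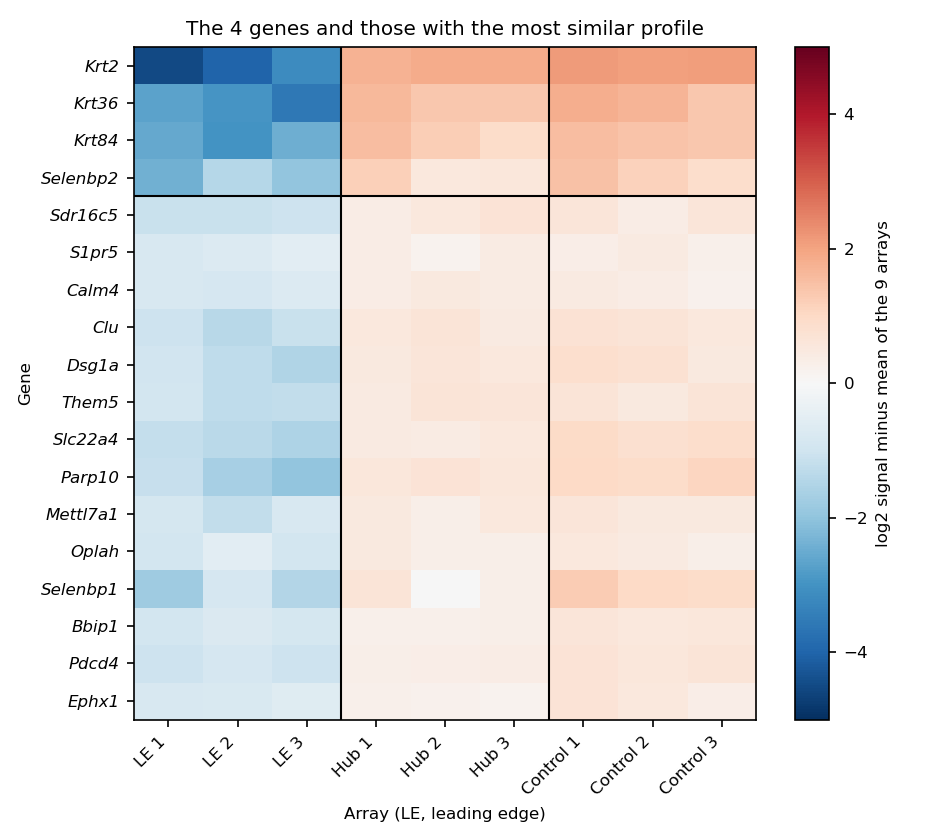
Heat map of the log2 signal of each gene (rows) on each array (columns; LE, hub, control from left to right) minus the mean of that gene over the 9 arrays; the 4 chosen genes are above the line and the genes with the most similar profile below it. The LE columns are below the mean for every row, with signals of 5.99, 6.50 and 7.35 for Krt2 on the LE arrays.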

How the data were processed

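The authors deposited log2 values of 9 Affymetrix mouse arrays, 1 per sample, that they made with RMA (background correction, quantile normalization over arrays and summary per probe set; version not given in the sources used here). Arrays give no read depth, and their number, 3 per group, limits the precision. Gene names came from the platform annotation. From 45141 probe sets (104 of them controls), the 28898 with a single gene symbol were used; 551 had several symbols and 15588 had no symbol. Where probe sets shared a symbol, the brightest on average stood for the gene, which left 17097 genes. Group means of all 9 arrays were fitted with limma 3.58.1 under R 4.3.3 (lmFit, then eBayes with no trend and no weights). Tests were two-sided, p-values were adjusted over 17097 genes by Benjamini-Hochberg, and an adjusted p under 0.05 was called. The fit was tested on simulated data. Promoter windows came from RefSeq (GRCm38.p6), read on both strands.

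The 4 genes, the gene lists and the tests were chosen with earlier results of these data known. Named genes are the 4 genes and Selenbp1, up to 4 called per direction and the 4 brightest of each list, the 5 closest profiles per gene, chromosomal neighbours and sort markers; other list members beside a count were named after their values were seen. The alternatives were to use only the 6 arrays compared, to leave out each array, to average all probe sets of a gene, to drop genes with a mean under 6 in every group, to centre arrays on their medians, to repeat quantile normalization, to weight arrays, to let the variance follow the mean, and to add the replicate number as a block.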

Additional observations from a re-analysis of the deposited data

How the results depend on the processing

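Over 8 alternatives and the omission of each of the 9 arrays, LE minus hub lay between -6.08 and -5.40 for Krt2, -4.70 and -4.26 for Krt36, -4.04 and -3.72 for Krt84, and -2.93 and -2.45 for Selenbp2, which the mean of all probe sets cannot change since each gene has 1. LE minus control lay between -6.35 and -5.67 for Krt2, -4.87 and -4.43 for Krt36, -4.22 and -3.94 for Krt84, and -3.34 and -2.86 for Selenbp2. None of the 4 passed in hub against control under any of them, with limma adjusted p from 0.0838 (Krt2, only the 6 arrays compared) to 0.936 (Krt36, an array left out).

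The count of other keratins higher in LE than in hub was 1, became 2 with a mean-variance trend, and ranged from 0 to 1 when 1 array was left out; it was 0 without LE replicate 2, hub replicate 1 or hub replicate 2. The count of those lower stayed at 4 throughout. Against control, 4 to 5 were higher and 5 to 6 lower at the LE, and 2 to 3 higher and 2 to 3 lower in hub. No direction reversed.

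Replicate numbers are shared by the groups, but same-numbered arrays did not deviate together (r from -0.18 to 0.08 over 9 pairs; 2 of 9 arrays matched their own number best). With the replicate block, hub minus control of Krt2 had a limma adjusted p of 0.65, 1 other keratin was higher and 4 were lower in LE than in hub, and of the named factors Gata3 was no longer called between LE and hub (adjusted p = 0.0507).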
